A study of Mus musculus with 15 samples.

Results

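The transcriptome described here is that of lumbar motor neurons from unaffected mice, measured in 3 of the 15 RNA sequencing libraries of a study of spinal muscular atrophy (SMA). The 3 libraries, called WT 1, WT 2 and WT 3, were chosen by their label alone: wild type and given vehicle. No other group enters and no comparison between groups is made. The wild-type mice were littermates of SMNΔ7 mice with the genotype Smn+/+;SMN2;SMNdelta7 on an FVB background. They have intact mouse Smn, but carry the human SMN2 and SMNΔ7 transgenes as the SMA mice do. Tissue was taken at postnatal day 6 from lumbar segments L1 to L3. The neurons were labelled with cholera toxin subunit B, a tracer that axons carry back to the cell body, and cut out by laser-capture microdissection. Male and female mice were used in equal proportions, per the labels, and nothing in them says how many animals or cells went into a library.

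Values are transcripts per 1000000 transcripts (TPM), a level corrected for transcript length. Different genes are set side by side within a library on that basis. The correction does not remove differences by base composition, which are described below for WT 1. Each library sums to 1000000 TPM whatever its depth, so the depth is unknown and no counting interval can be given. Where 3 values follow a gene, they are TPM in WT 1, WT 2 and WT 3, in that order, and the number of the library carries no order in itself. Genes were ranked by the median over the 3 libraries. A gene was taken as present at 1 TPM or more in all 3. That held for 11577 of 36144 genes, among them 51.3% of the protein-coding genes in the table. The median protein-coding gene had 2.49 TPM.

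Spinal motor neurons release acetylcholine onto skeletal muscle through axons that leave the cord, and are the cells lost in SMA. Acetylcholine is made by choline acetyltransferase (Chat), loaded into vesicles by Slc18a3 and rebuilt from choline taken up by Slc5a7. Isl1 and Mnx1 are transcription factors that specify motor neurons, and Prph encodes peripherin, an intermediate filament of neurons with peripheral axons. All 6 of these defining markers were present in all 3 libraries, at 10 TPM or more in each.

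WT 1 stood apart from the other libraries and has to be described first. Over 15283 genes, Pearson's r of log2(TPM + 1) was 0.967 between WT 2 and WT 3, but 0.866 between WT 1 and WT 2 and 0.864 between WT 1 and WT 3. Genes are not replicates, so these r values describe the libraries only. The genes of the mitochondrial genome held 21.9% of TPM in WT 1, 7.55% in WT 2 and 7.52% in WT 3. Transcripts annotated as retaining an intron took 7.93%, 4.41% and 4.24% of nuclear TPM. Transcripts annotated as protein-coding took 72.9%, 83.8% and 85.2% of it.

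The deviation of WT 1 followed the base composition of transcripts. Among 7575 genes with a mean of at least 10 TPM, the difference of log2(TPM + 1) between WT 1 and the mean of WT 2 and WT 3 had a Spearman rho of -0.70 with transcript GC content across genes. WT 2 minus WT 3 had a rho of 0.04. In the fifth of genes with the lowest GC content the median difference of WT 1 was 0.96, and in the fifth with the highest it was -0.95. Without WT 1, 12538 genes were present in both other libraries. The part of this deviation in any value of WT 1 was not tested. A gene rich in A and T can thus be high in WT 1 and a GC-rich gene low, and the values of all 3 libraries are printed for that reason.

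**Figure D1:**
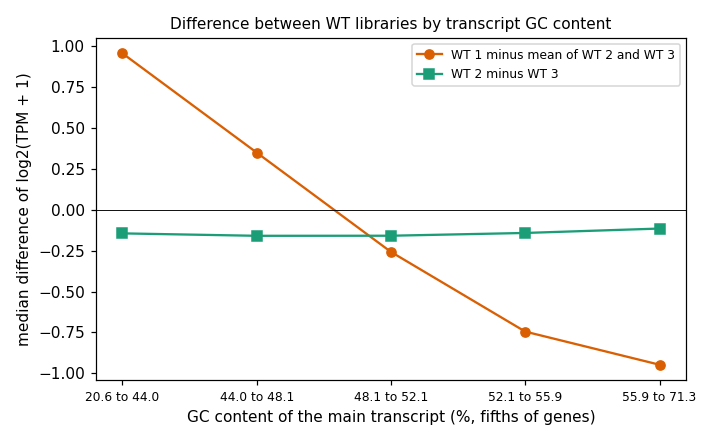
Median difference of log2(TPM + 1) between WT libraries in 5 classes of genes by the GC content of their main transcript (1515 genes a class). WT 1 minus the mean of WT 2 and WT 3 (circles) went from 0.96 to -0.95, while WT 2 minus WT 3 (squares) stayed between -0.16 and -0.12.

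The most abundant entry of the nuclear genes was not a working nuclear gene. Gm29216 is an unprocessed pseudogene of 492 bases at chr1:24615706-24616197 (GRCm38), on the minus strand. Its values were 45501, 17492 and 14146 TPM. It is 99.8% identical to the mitochondrial gene mt-Co1 over 483 bases. Gm28438, rank 11 and 4296, 3966 and 3245 TPM, lies close by at chr1:24612775-24613119 and is 99.7% identical to mt-Nd3 over 345 bases. The 60-base stretches that follow are shown because each holds the only difference of its pair within the aligned part, in capitals. A read of 100 bases that misses this base matches both members of the pair.
Gm29216: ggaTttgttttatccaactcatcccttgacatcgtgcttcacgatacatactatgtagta
mt-Co1: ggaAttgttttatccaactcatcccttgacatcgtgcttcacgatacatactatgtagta
Gm28438: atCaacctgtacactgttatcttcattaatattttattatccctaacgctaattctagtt
mt-Nd3: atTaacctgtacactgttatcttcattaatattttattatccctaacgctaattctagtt
Gm13394: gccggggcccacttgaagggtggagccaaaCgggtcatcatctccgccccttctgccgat
Gapdh: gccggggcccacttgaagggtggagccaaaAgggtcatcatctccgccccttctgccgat

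The last pair is of another kind. Gm13394, rank 26, is a processed pseudogene on chromosome 2 that matches the messenger RNA of the glycolytic gene Gapdh at all but 1 of 1000 bases. Its values of 1016, 2697 and 2843 TPM ran close to those of Gapdh itself, 1274, 2844 and 2601 TPM. Gm1821, rank 31, is 98.5% identical to the ubiquitin gene Ubb over 685 bases. Gm10123, rank 67, is identical to Ppia over 490 bases. Gm20594, rank 8 and annotated as protein-coding on chromosome 6, is 88.4% identical to the mitochondrial ribosomal RNA gene mt-Rnr2 over 439 bases. Levels of the 5 entries at 98.5% identity or more, and of their counterparts, are uncertain for that reason. Whether reads of mt-Rnr2 count towards Gm20594 was not tested. With the 2 copies on chromosome 1 added to the mitochondrial genes, their share was 26.9%, 9.70% and 9.26%.

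Apart from these copies, the top of the list was held by calmodulin, neurofilament, tubulin and respiratory chain genes. Calm2, a calmodulin gene, had 8003, 5583 and 6436 TPM. Nefm, the medium neurofilament subunit, had 5150, 6085 and 6478 TPM, and Nefl, the light subunit, 5247, 5069 and 6101 TPM. Nefm and Nefl were within 1.20-fold of each other in every library, so their order is not resolved. Ppia (cyclophilin A), Usmg5, Ndufa4 and Tuba1a (alpha-tubulin) were also among the leading 10. Ppia had 3709, 6627 and 5978 TPM, but 788, 1866 and 1885 TPM in coding transcripts.

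Energy supply dominated by number. Of the 40 most abundant nuclear genes, 14 encode subunits of the respiratory chain or the ATP synthase. In the top 100 this class held 36 genes, counting Atpif1, which encodes an inhibitor of the ATP synthase. Cox6c, a cytochrome c oxidase subunit, had 3697, 4216 and 3302 TPM, and Atp5g1, of the ATP synthase, 1831, 4064 and 3776 TPM. All 37 complex I, 4 complex II, 9 complex III and 18 ATP synthase genes were present in all 3 libraries. These classes were formed by gene symbol, so Ndufa4 counts under complex I and Atpif1 under the ATP synthase. Of complex IV, 13 of 17 genes were present, and 1 was at 0 in all 3. The complex IV class counts alternative isoform genes of the same subunit separately, so these numbers do not count missing subunits. Ribosomal protein genes held 0 of the top 40 places and 2 of the top 100 (Rpl38 and Rps29), although 81 of 84 were present, with a median level of 337 TPM. The cytoskeleton list held 7 of the top 40 and 16 of the top 100.

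**Figure D2:**
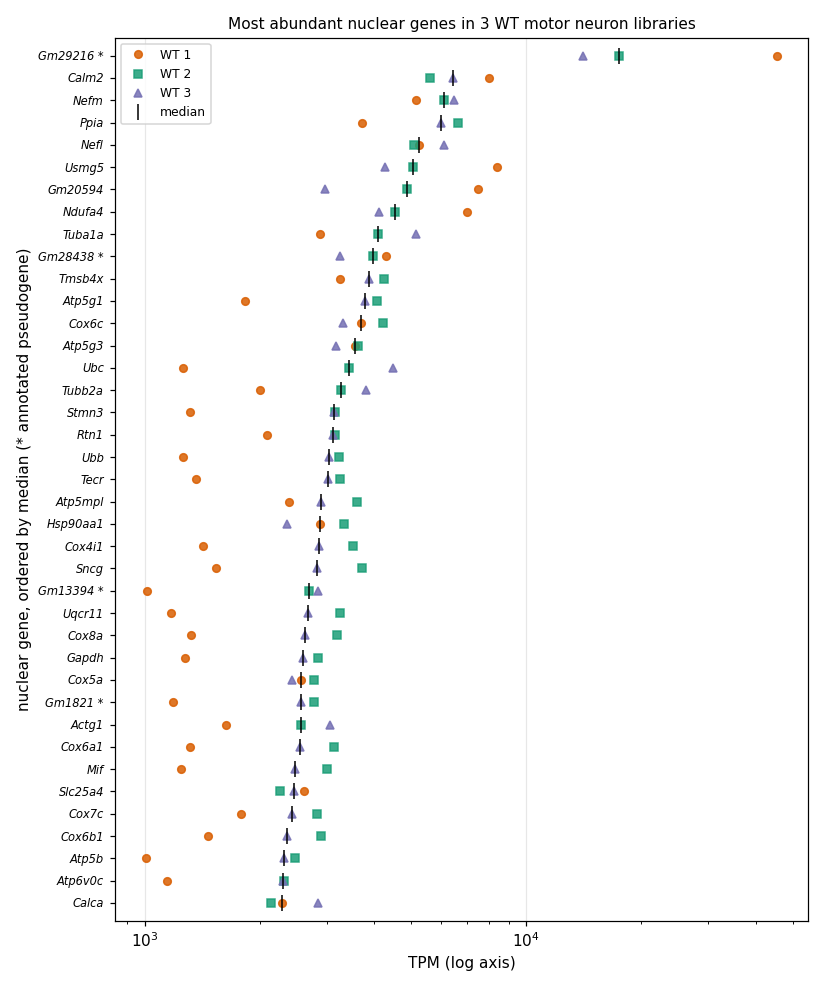
TPM (log axis) of 39 of the 40 nuclear genes with the highest median over the 3 WT libraries; symbols are single libraries, the bar is the median and an asterisk marks annotated pseudogenes. WT 1 lies lowest for many genes, such as Stmn3 and Cox4i1, and highest for Gm29216, Calm2 and Usmg5.

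The cytoskeleton list as a whole was the highest of all lists of motor neuron genes. Of its 30 genes 29 had at least 10 TPM in all 3 libraries, and the median of its genes was 1323 TPM. The heavy neurofilament subunit Nefh had 651, 1032 and 1199 TPM, and Nefl exceeded it 8.06-, 4.91- and 5.09-fold. Prph had 680, 1668 and 1734 TPM and rank 65, the highest of the 6 markers. Gap43, a protein of growing axons, had 951, 1434 and 1596 TPM, and Stmn2, a regulator of microtubules in axons, 1119, 1778 and 1851 TPM. Vim (vimentin) at 25.4, 28.6 and 25.6 TPM and Nes (nestin) at 0.757, 1.31 and 1.73 TPM, filaments of glia and progenitors, were the lowest of the list.

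The 100 most abundant nuclear genes together held 23.0%, 27.1% and 24.6% of TPM. The level range was wide: 5956 genes had at least 10 TPM in all 3 libraries, 1059 at least 100 TPM and 82 at least 1000 TPM, of which 69 were nuclear. In all, 15099 genes of the table were listed at 0 in all 3.

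Of 9 genes of acetylcholine synthesis and breakdown, 7 were present in all 3 libraries, with a median of 83.1 TPM. Slc18a3, the vesicular acetylcholine transporter, had 119, 284 and 397 TPM. Chat had 75.1, 83.1 and 120 TPM. As mean ± SD (n = 3) these are 266 ± 140 TPM and 92.9 ± 24.2 TPM. Slc18a3 was higher than Chat in each library, by 1.58-, 3.42- and 3.29-fold.

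Chat and Slc18a3 share a locus. Slc18a3 (chr14:32462438-32464850, minus strand) lies within the span of Chat (chr14:32408203-32465989, minus strand) in the GENCODE annotation. The windows from 250 bases before to 50 after the start of each gene, from RefSeq on GRCm38.p6, are shown so that the shared locus can be read; Chat spans chr14:32465860-32466159 and Slc18a3 chr14:32464801-32465100. The RefSeq starts on which these windows are built are 1059 bases apart. The motif TATAAA was searched on both strands and is in neither window, so no letters are in capitals. It is in 13.1% of all 17342 windows of genes in the table.
Chat: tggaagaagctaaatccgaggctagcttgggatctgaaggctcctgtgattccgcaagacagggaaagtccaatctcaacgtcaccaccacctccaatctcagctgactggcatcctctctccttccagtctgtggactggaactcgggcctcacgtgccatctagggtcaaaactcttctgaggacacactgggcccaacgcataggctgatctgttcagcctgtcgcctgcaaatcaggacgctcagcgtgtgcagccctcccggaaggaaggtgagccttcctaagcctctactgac
Slc18a3: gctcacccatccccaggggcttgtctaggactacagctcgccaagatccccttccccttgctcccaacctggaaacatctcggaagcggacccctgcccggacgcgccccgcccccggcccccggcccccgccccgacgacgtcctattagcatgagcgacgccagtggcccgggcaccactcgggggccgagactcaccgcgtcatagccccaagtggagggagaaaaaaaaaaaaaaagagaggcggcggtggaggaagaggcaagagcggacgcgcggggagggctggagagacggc

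The windows differ in composition. The Slc18a3 window holds 27 CG pairs and is 67.0% G and C, and the Chat window holds 10 CG pairs and is 55.7% G and C. The median over all windows is 13 CG pairs. Whether either start was used in these cells cannot be read from TPM per gene.

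Slc5a7, the choline transporter, looked higher than Chat by gene but lower by coding transcript. Its gene values were 304, 136 and 153 TPM. The coding transcript Slc5a7-201 had 26.4, 49.2 and 71.3 TPM. Slc5a7-202, annotated as a retained intron, had 276, 85.9 and 80.1 TPM, or 90.9%, 63.2% and 52.4% of the gene. Restricted to coding transcripts, Slc5a7 was below Chat in 3 of 3 libraries. Ache, the enzyme that breaks acetylcholine down, had 165, 461 and 501 TPM. Colq and Bche were below 1 TPM in all 3.

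Among the transcription factors, Isl1 had 53.4, 111 and 32.9 TPM, Isl2 19.6, 35.8 and 39.2 TPM and Mnx1 24.2, 33.0 and 28.6 TPM. Their means ± SD (n = 3) were 65.9 ± 40.7 TPM, 31.6 ± 10.5 TPM and 28.6 ± 4.41 TPM. The order of Isl1 and Isl2 reversed in WT 3, so it is not resolved. Of 27 listed genes of motor neuron specification, 17 were present in all 3 libraries. Neurog2, a gene of progenitors, and Phox2a, of visceral motor neurons of the brainstem, were listed at 0 in all 3. Lhx3, of medial motor column neurons and motor neuron precursors, had 0.212, 0.432 and 3.35 TPM.

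Aldh1a2 and Foxp1 were highest in WT 3. Aldh1a2, a retinoic acid synthesising enzyme, had 28.3, 28.5 and 262 TPM. Foxp1, which marks limb-innervating motor neurons, had 9.71, 8.31 and 53.1 TPM, or 3.54, 7.48 and 45.3 TPM in coding transcripts. In WT 1 63.5% of Foxp1 was Foxp1-211, annotated as a retained intron.

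Hox genes give a cell its place along the body axis. Of 39, 19 were present in all 3 libraries. Hoxd10 was highest with 22.6, 37.8 and 70.6 TPM, followed by Hoxc10 with 20.3, 30.3 and 64.5 TPM, and both were highest in WT 3. Hoxa10 had 12.9, 24.1 and 30.7 TPM (1.27, 8.53 and 11.9 TPM in coding transcripts), Hoxa9 18.5, 28.9 and 22.2 TPM and Hoxc8 22.0, 19.1 and 16.1 TPM. The ranges of these 3 genes overlap, so their order is not resolved. Hoxc9 had 7.09, 7.12 and 5.43 TPM and was below Hoxd10 3.18-, 5.30- and 12.999-fold. Hoxa11, a more posterior gene, was listed at 0 in WT 1 and WT 2 and had 8.38 TPM in WT 3. Hoxa13, Hoxb13, Hoxc12, Hoxc13, Hoxd12 and Hoxd13 were at 0 in all 3.

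All 7 listed genes of alpha and fast motor neurons and both listed genes of slow ones were present in all 3 libraries, and their levels overlapped. Chodl, a marker of fast motor neurons, had 539, 480 and 769 TPM. Sv2a, named for slow motor neurons, had 14.1, 21.6 and 25.4 TPM, so Chodl was 38.1-, 22.2- and 30.2-fold higher. Sv2a is also a vesicle protein of many neurons, and different genes need not report numbers of cells. Esrrb, another slow marker, had 9.15, 5.35 and 8.99 TPM. Mmp9, a marker of the fastest neurons, had 14.0, 16.6 and 20.8 TPM, below Sv2a in every library, and 2.81, 6.999 and 14.3 TPM in coding transcripts. Kcng4, also of the fast list, had 6.91, 3.61 and 4.20 TPM, below both Sv2a and Esrrb in 3 of 3. Rbfox3 (NeuN), low in gamma motor neurons, had 64.9, 122 and 144 TPM, and Esrrg, high in them, 86.8, 27.5 and 43.7 TPM. The order of Rbfox3 and Esrrg was reversed in WT 1. Of 8 listed genes of gamma motor neurons, 6 were present in all 3 libraries, with a median over the list of 12.6 TPM. Esrrg was below only Gfra1 in this list by median, so it is not typical of the list.

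**Figure D3:**
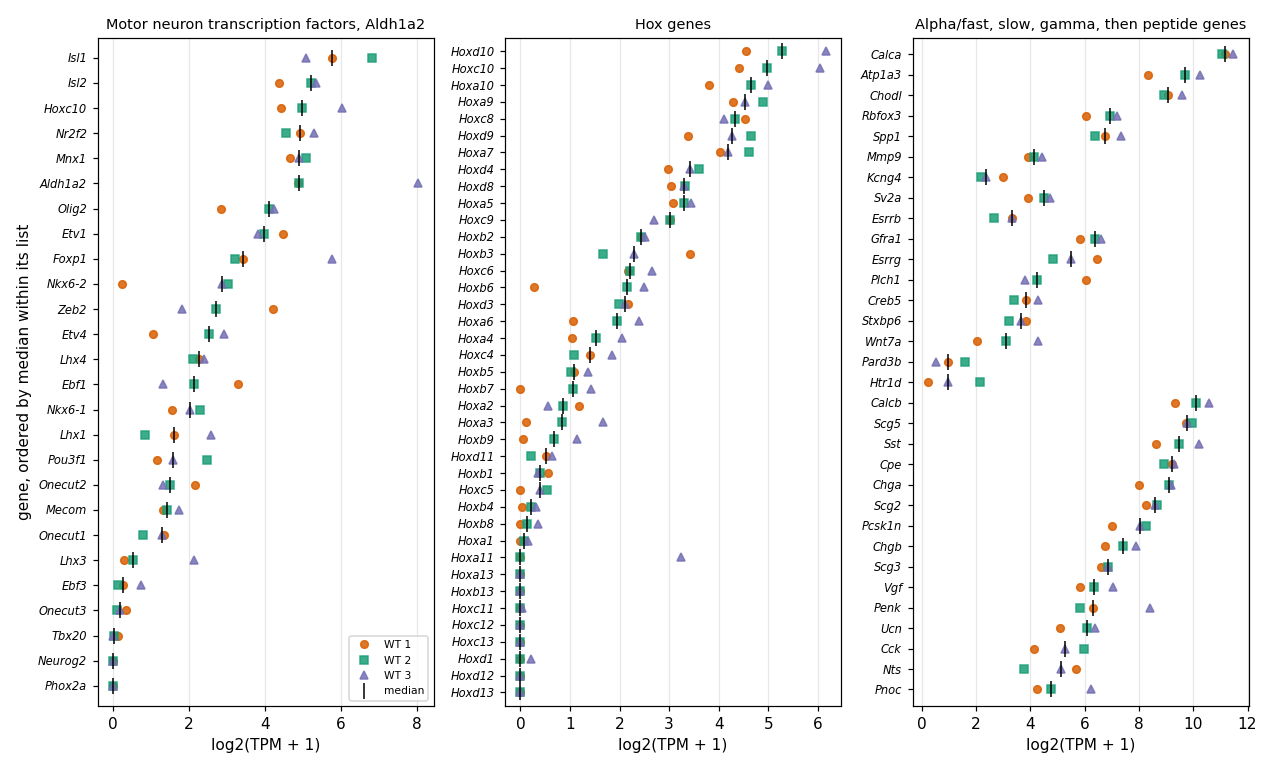
Levels as log2(TPM + 1) in each WT library of motor neuron transcription factors and Aldh1a2 (left), Hox genes (middle), and subtype and peptide genes (right); the bar is the median. Aldh1a2, Foxp1, Hoxc10, Hoxd10 and Hoxa11 lie furthest right in WT 3.

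Of the listed neuropeptide and granin genes, only Calca was among the 100 most abundant nuclear genes. Of 32 listed genes of peptides, granins and their processing, 25 were present in all 3 libraries, with a median of 23.4 TPM. Calca, which encodes calcitonin and calcitonin gene-related peptide (CGRP), had 2296, 2140 and 2842 TPM and rank 40. Transcript Calca-201 held 78.0%, 93.9% and 92.9% of it, and the rest in WT 1 was mostly Calca-203, a retained intron with 481 TPM. Calcb, the second CGRP gene, had 645, 1096 and 1517 TPM, and Calca exceeded it 3.56-, 1.95- and 1.87-fold.

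Somatostatin (Sst) had 393, 719 and 1184 TPM, all from its single transcript. Penk (enkephalin) had 78.8, 55.5 and 336 TPM and Gal (galanin) 4.66, 1.17 and 28.9 TPM, each highest in WT 3. The granin genes were steadier: Chga had 257, 556 and 573 TPM, Scg2 307, 401 and 386 TPM and Scg5 856, 998 and 872 TPM. Ucn (urocortin) had 33.1, 67.0 and 82.0 TPM. Uts2 (urotensin 2), which was outside the lists and was singled out after its values were seen, had 758, 2138 and 1318 TPM and rank 92. Vip and Tac2 were under 1 TPM in all 3.

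Of 18 genes of other transmitters, 7 were present in all 3 libraries. Slc17a6, the vesicular glutamate transporter of excitatory spinal neurons, had 48.2, 19.0 and 27.9 TPM. Slc17a7 and Slc17a8, the other vesicular glutamate transporters, were at most 0.300 TPM. Slc32a1, which loads GABA and glycine, was at most 0.383 TPM, and Gad1 had 3.41, 3.66 and 3.69 TPM, of which 0, 1.12 and 1.19 TPM were in coding transcripts. The transporters for dopamine and serotonin (Slc6a3, Slc6a4) were at 0 in all 3.

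Sodium channel genes were led by Scn1a among the pore-forming subunits. Scn1a had 87.7, 70.2 and 61.1 TPM, Scn8a 45.6, 35.8 and 44.8 TPM and Scn2a 48.4, 31.8 and 30.8 TPM. Scn1a was 1.92-, 1.96- and 1.36-fold above Scn8a and was above both in every library, also when only coding transcripts were counted. Scn8a and Scn2a changed order between libraries. The muscle and nociceptor channels Scn4a and Scn10a were at 0 in all 3.

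Among the calcium channels, Cacna1a (P/Q type, which triggers release at the nerve-muscle junction) had 18.5, 15.4 and 13.8 TPM, or 8.64, 7.54 and 6.71 TPM in coding transcripts. Cacna1b (N type) had 7.76, 2.99 and 2.39 TPM, below Cacna1a in every library. Hcn2, a channel opened by hyperpolarisation, had 6.85, 19.1 and 27.1 TPM. In all, 10 of 14 sodium channel genes and 14 of 18 calcium channel genes were present in all 3.

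Of 76 potassium channel genes, 47 were present in all 3 libraries. The auxiliary subunit Kcnip1 was highest by median, with 108, 145 and 313 TPM. The leak channels Kcnk3 and Kcnk9 (TASK channels) had 38.9, 73.6 and 90.7 TPM and 60.1, 47.1 and 57.1 TPM, with the order reversed in WT 1. Kcna1 had 48.6, 47.4 and 69.2 TPM, 1.79-, 2.87- and 3.27-fold above Kcna2. Kcnc1, a channel of fast repolarisation, had 16.9, 45.2 and 52.7 TPM. Kcnn2, of the after-hyperpolarisation, had 65.7, 27.3 and 33.1 TPM. Kcng3, Kcnj4, Kcnk5, Kcnk18 and Kcnv2 were at 0 in all 3.

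Glutamate receptor genes included members of every ionotropic class, and 21 of 26 were present in all 3 libraries. Of the AMPA receptor subunits, Gria2 had 184, 75.1 and 102 TPM and Gria4 103, 64.9 and 84.5 TPM, while Gria1 had 11.7, 7.06 and 14.7 TPM. Gria2 exceeded Gria1 15.8-, 10.6- and 6.90-fold. Its lead over Gria4 rested on transcripts that are not coding: among coding transcripts Gria2 had 44.5, 46.7 and 51.8 TPM and was below Gria4 in 3 of 3 libraries. Among the NMDA receptor subunits, Grin2b had 81.4, 169 and 133 TPM, Grin1 37.3, 60.4 and 91.2 TPM and Grin2a 42.0, 14.8 and 22.1 TPM. By coding transcripts Grin2b had 31.4, 48.99 and 46.7 TPM, and was above Grin2a in 2 of 3 libraries instead of 3 of 3.

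Of 25 genes of GABA and glycine receptors, 19 were present in all 3 libraries. They held subunits of young and of mature neurons side by side. Glra2, known as the fetal glycine receptor subunit, had 85.8, 44.8 and 68.2 TPM, and Glra1, the adult one, 59.04, 31.6 and 46.5 TPM. The ratio of Glra2 to Glra1 was steady at 1.45, 1.42 and 1.47, although both levels differed between libraries. Glrb, the beta subunit, had 324, 145 and 193 TPM, but in WT 1 79.8% of it was Glrb-204, annotated for nonsense-mediated decay, against 2.39% and 4.60% in WT 2 and WT 3. Its coding transcripts had 63.6, 139 and 180 TPM.

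Gabra5 had 60.6, 66.4 and 87.3 TPM and Gabra2 146, 60.4 and 85.6 TPM. By coding transcripts Gabra2 fell to 24.7, 16.3 and 22.8 TPM, below Gabra5 in 3 of 3. Gabra6, of cerebellar granule cells, was at 0 in all 3. The chloride exporter Slc12a5 (KCC2) had 265, 138 and 108 TPM and the importer Slc12a2 (NKCC1) 7.32, 8.20 and 6.00 TPM. Slc12a5 was 36.2-, 16.8- and 18.05-fold higher, or 32.6-, 9.42- and 8.56-fold by coding transcripts. Most coding TPM of Slc12a5 lay in Slc12a5-208, a short transcript of 1202 bases. A coding transcript of 6028 bases had 3.53, 4.54 and 10.1 TPM, below Slc12a2 in WT 1 and WT 2 and above it in WT 3. Another of 5690 bases had 1.41, 2.59 and 5.37 TPM, below Slc12a2 in every library. The excess of Slc12a5 by coding transcripts thus rested on the short transcript in WT 1 and WT 2.

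**Figure D4:**
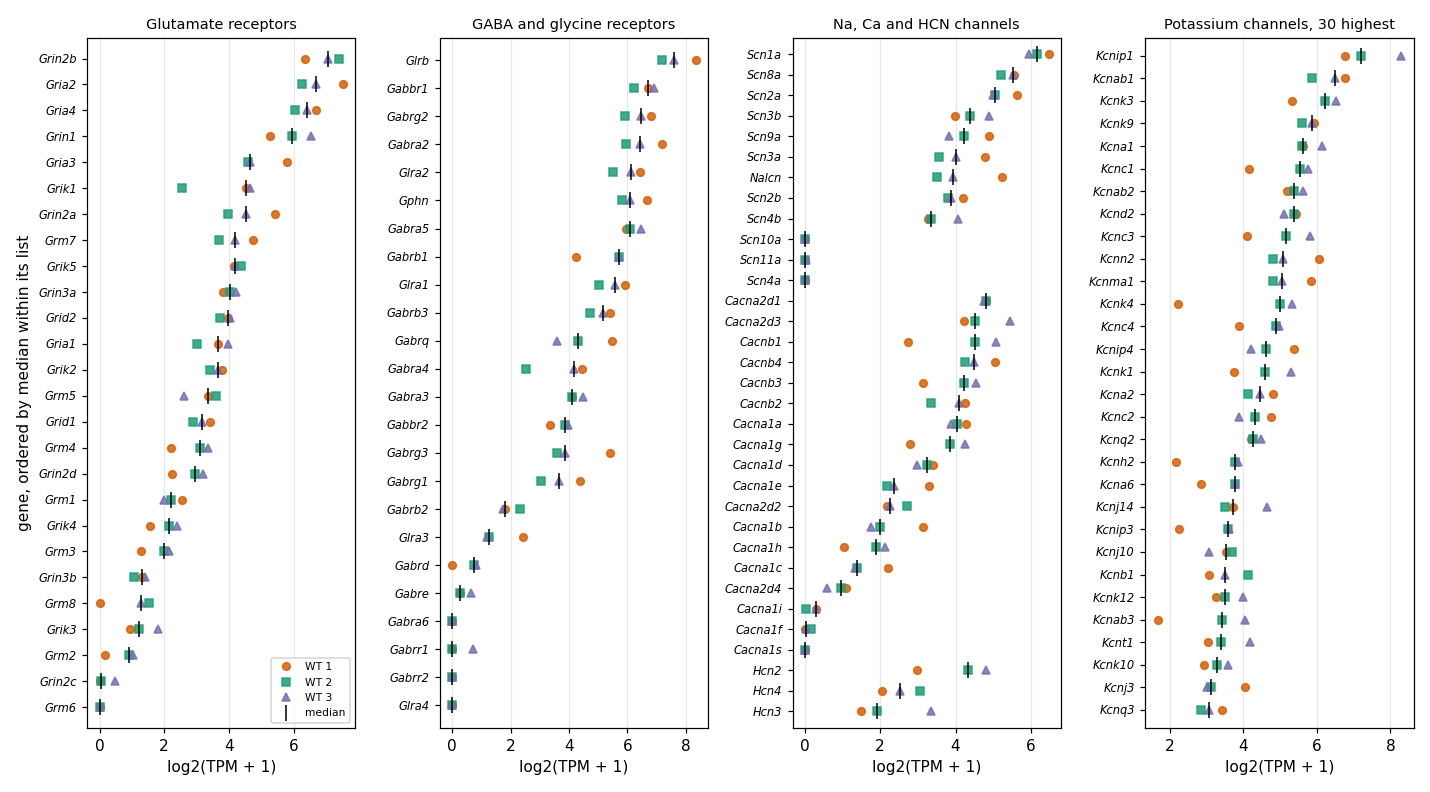
Levels as log2(TPM + 1) in each WT library of genes for glutamate receptors, GABA and glycine receptors with Gphn, sodium, calcium and HCN channels, and the 30 highest potassium channel genes; the bar is the median. Gria1 lies well left of Gria2, and Hcn2 lies furthest left in WT 1.

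Most receptors of modulatory transmitters were low. Chrm2, the muscarinic M2 receptor, had 95.6, 42.3 and 46.0 TPM, 29.1-, 15.1- and 19.1-fold above Chrm3. Chrna4 led the nicotinic subunits with 19.96, 46.6 and 41.9 TPM, and 5 of 16 were present in all 3. Chrna6, Chrna9 and Chrna10 were at 0. Htr2a, a serotonin receptor, had 34.2, 15.4 and 24.3 TPM, 5.66-, 5.26- and 4.38-fold above Htr2c. Adra1b, an adrenergic receptor, had 12.4, 17.8 and 39.4 TPM. In all, 11 of 31 monoamine receptor genes were present in all 3, and Drd3 and Htr5b were at 0.

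Oprl1, the nociceptin receptor, had 38.6, 71.7 and 75.3 TPM (5.04, 20.2 and 27.9 TPM in coding transcripts), and the mu opioid receptor Oprm1 at most 0.0757 TPM. Trhr, the receptor of thyrotropin-releasing hormone, had 100, 25.7 and 23.2 TPM, of which 92.9%, 86.6% and 78.4% lay in a transcript annotated for nonsense-mediated decay. Ramp1, which forms the CGRP receptor together with Calcrl, had 20.9, 79.0 and 59.01 TPM, whereas Calcrl had 0.591, 0.358 and 1.48 TPM.

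Among the trophic factor receptors, Ret had 136, 136 and 201 TPM. Ret is the signalling receptor of the GDNF family, whose ligands keep motor neurons alive. Its partner Gfra1 had 56.1, 81.6 and 97.4 TPM, Gfra2 23.8, 56.5 and 36.002 TPM, and Gfra3 was at 0 in all 3. Gfra4 had 22.6, 60.4 and 61.3 TPM, but 5.71, 6.82 and 6.27 TPM in coding transcripts. Ret was 5.84-, 4.61- and 4.38-fold above Ntrk2, the receptor of BDNF. Ntrk3 had 45.6, 51.0 and 45.4 TPM, and Cntfr 26.9, 34.2 and 75.7 TPM.

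The release machinery showed the isoforms known from the nerve-muscle junction. Vamp1 had 197, 294 and 417 TPM, 2.31-, 2.10- and 1.86-fold above Vamp2. Syt2, the calcium sensor of fast release, had 80.9, 121 and 120 TPM, 3.01-, 6.03- and 4.25-fold above Syt1. Both orders also held by coding transcripts in 3 of 3 libraries. Sncg (gamma-synuclein) had 1540, 3721 and 2830 TPM and rank 25. Snap25 had 1519, 971 and 1382 TPM. In all, 35 of 37 listed genes were present in all 3, with a median of 65.8 TPM.

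Of the signals sent to muscle, Nrg1 had 122, 64.5 and 104 TPM. Agrn, which gathers acetylcholine receptors on the muscle, had 59.5, 73.4 and 66.2 TPM, but 89.2%, 91.0% and 86.3% of this lay in Agrn-205, annotated as a retained intron. Its coding transcripts had 3.07, 6.54 and 8.28 TPM. Bdnf had 7.39, 5.81 and 8.54 TPM and Gdnf was at 0 in all 3. Musk, a muscle receptor through which agrin signals, was at most 0.0145 TPM.

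All 23 genes of axonal transport motors were present in all 3 libraries. Dynll1, a dynein light chain, had 1446, 1561 and 1270 TPM, of which 493, 815 and 678 TPM were in coding transcripts. Of the kinesins, Kif5c had 237, 179 and 185 TPM and was above Kif5a, with 56.7, 71.3 and 92.5 TPM, in every library. Of the 15 calcium-binding genes, Calb2 had 53.2, 36.4 and 17.3 TPM, Pvalb 3.26, 11.8 and 34.2 TPM and Calb1 0, 3.52 and 2.44 TPM. Calb2, Pvalb and Calb1 were each below Calm2, which stood near the top of the ranking, in every library.

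Of 33 genes of SMA and other motor neuron diseases, 30 were present in all 3 libraries. Smn1, the gene that is missing in SMA and intact in these mice, had 8.97, 16.5 and 23.3 TPM. The human transgenes were not analysed here. Sod1 had 284, 482 and 388 TPM, Pfn1 326, 757 and 643 TPM and Tardbp 159, 39.9 and 49.96 TPM, of which 34.9, 26.6 and 30.2 TPM were in coding transcripts. Ang, Spg11 and Trpv4 were not present in all 3, and Spg11 and Trpv4 were under 1 TPM throughout.

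Traces of other cells were present and differed by cell type. Laser capture takes what lies under the beam, and in bulk RNA fewer cells of a type and less RNA per cell cannot be told apart. Summed over its genes, the astrocyte list had 1020, 1922 and 1983 TPM, against 1256, 2315 and 2466 TPM for the 6 motor neuron markers. All 14 of its genes were present. Aldoc with 492, 1161 and 1238 TPM and S100b with 204, 372 and 387 TPM made up most of it, and S100b was also on the calcium-binding list, since neurons express it too. Gfap, the astrocyte filament, had 18.6, 54.8 and 33.7 TPM and Aqp4 62.2, 98.4 and 59.4 TPM.

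Oligodendrocyte genes were highest in WT 2. The sum was 770, 2235 and 714 TPM, of which Mbp had 231, 1210 and 348 TPM. Mog had 7.90, 43.1 and 6.55 TPM. Of the precursor genes, Olig1 had 34.9, 91.9 and 91.5 TPM and Pdgfra 6.28, 5.01 and 7.31 TPM. Haemoglobin genes were highest in WT 2 as well: Hba-a1 had 270, 971 and 537 TPM and Hbb-bs 198, 587 and 367 TPM. Slc4a1, the anion exchanger of red blood cells, was at 0 in all 3.

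Microglia genes summed to 78.6, 108 and 99.4 TPM. Tmem119 had at most 2.70 TPM and Itgam at most 0.549 TPM. The endothelium list summed to 171, 180 and 147 TPM, and Cldn5 had 14.97, 36.5 and 29.5 TPM. Of the Schwann cell list, Pmp22 had 42.1, 45.3 and 39.5 TPM. The pericyte and smooth muscle list summed to 51.2, 36.8 and 38.7 TPM, with Rgs5 at 37.3, 11.99 and 12.2 TPM and Vtn at 10.1, 19.03 and 12.2 TPM, and 2 of 8 genes were present in all 3. The fibroblast list summed to 33.7, 24.6 and 15.7 TPM with 4 of 7 genes present, led by Dcn at 23.03, 8.68 and 4.15 TPM, while Col1a1 was at most 0.134 TPM. The ependymal list summed to at most 4.43 TPM, and Dynlrb2 and Tmem212 were at 0.

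Markers of other neurons were low except for Slc17a6, a vesicular glutamate transporter, at 48.2, 19.0 and 27.9 TPM. Of 11 inhibitory interneuron genes 1 was present in all 3, Gad1, and the list summed to 4.40, 10.4 and 13.1 TPM. Of 9 excitatory interneuron genes, Slc17a6 and Nkx2-2 were present, with a list sum of 52.1, 24.4 and 31.7 TPM, and Evx1, Lmx1b, Shox2, Sox14 and Tlx3 were at 0 in all 3. Of 7 sensory neuron genes 0 were present, and the sum was at most 1.76 TPM. Skeletal muscle genes summed to at most 11.8 TPM, with Acta1 at 2.69, 2.96 and 3.07 TPM.

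Krt10, a keratin of the epidermis, had 192, 55.2 and 34.5 TPM, while Krt5 and Krt15 of its basal layer were at 0 in all 3. Of Krt10, 95.5%, 79.2% and 64.5% lay in Krt10-202, a transcript of 557 bases. Proliferation genes were low apart from Pcna, with 94.2, 51.9 and 40.5 TPM, and Mki67 had 2.18, 1.14 and 1.88 TPM. Of the immediate early genes, Jun had 77.9, 91.7 and 131 TPM and Fos 8.11, 12.7 and 27.7 TPM, and Atf3, a gene of injured motor neurons, had 0, 1.09 and 4.30 TPM. The part of any of these traces in the levels above was not tested.

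**Figure D5:**
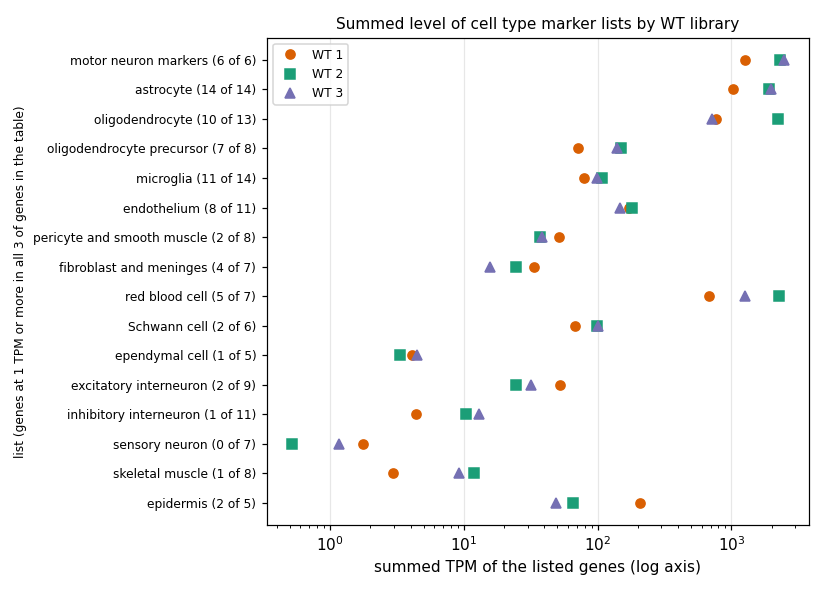
Summed TPM (log axis) of marker lists of motor neurons and other cell types in each WT library; in brackets, the genes at 1 TPM or more in all 3 libraries of the genes in the table. The oligodendrocyte and red blood cell sums lie near that of the 6 motor neuron markers in WT 2 and below it in WT 1 and WT 3, and sensory neuron and muscle sums lie far below in all 3.

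The spread between the libraries was large for single genes. Over 7590 genes with a mean of at least 10 TPM, scaled to nuclear TPM, the median range of log2(TPM + 1) was 0.95, and 591 genes ranged over more than 2. Between WT 2 and WT 3 alone, the median was 0.27 and 25 genes exceeded 2. Of the 100 genes of widest range, 75 were highest in WT 1. The 15 widest included 10 processed pseudogenes, such as Gm48494 with 715, 0 and 35.8 TPM and Gm10108 with 0, 265 and 150 TPM.

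The protein-coding genes among these 15 were of several kinds. Ulk4 (chr9:120955351-121277197), a kinase-like gene that overlaps exons of Ctnnb1 on the other strand, had 310, 7.04 and 1.46 TPM, but at most 0.625 TPM in coding transcripts. Nhej1 (chr1:74967139-75125200), a DNA repair gene, was at 0 in WT 1 and had 88.8 and 99.1 TPM in the others, of which 8.79 and 8.65 TPM were in coding transcripts. Reg3b (chr6:78370657-78373466), a secreted lectin, had 644, 272 and 6.29 TPM. Gm17571 had 111, 0 and 4.94 TPM. The fifth, Eif2s3y on the Y chromosome, had 167, 35.4 and 0.0297 TPM, with 51.8, 13.6 and 0 TPM in coding transcripts. Ddx3y, Uty and Kdm5d, also Y-linked, were likewise highest in WT 1 and lowest in WT 3, with Ddx3y at 24.2, 10.4 and 0.180 TPM. The labels state equal proportions of male and female mice and give no sex by library.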

How the data were processed

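RNA of 3 wild-type libraries of laser-captured motor neurons was analysed. Per the labels' protocols, low-input poly(A) libraries were amplified and sequenced with paired ends of 100 bases. The authors deposited TPM per gene and per transcript. Per the submitters' processing notes, kallisto 0.44.0 was used with GRCm38.p6, and its index is not given in the sources used here. Of the transcripts, 98.5% matched GENCODE M21 (GRCm38), which supplied positions and transcript types. Only 3 of 9353 long noncoding genes of that annotation were in the table, and the others were not analysed here. The depth is unknown, since TPM holds no counts.

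Genes were ranked by median TPM with Python 3.11.15 and pandas 2.3.3, and copies were matched with BLAST 2.17.0. No test was made, as there is 1 group. The text names the 6 markers, the 40 leading nuclear genes, up to 12 of each of 46 gene lists (all of lists of up to 18 genes), members at 0, the 15 genes of widest range and transcripts of these. Uts2, Smn1, Hoxa11, Lhx3, Gal, Ucn, Vip, Tac2, Calcrl, Oprm1, Nefh, Vim, Nes, Syt1, Syt2, Kif5a, Kcna2, Ang, Spg11 and Trpv4 lie outside this rule and were chosen after their values were seen. Some genes of the lists are not reported here by name, but count in the lists. The members and lists were chosen with earlier results of these data known. The scalings and the search for genes of widest range were checked on simulated data, and the ranking by median TPM was not. Alternatives were other scalings, the pseudocount (1 or 0.1), coding transcripts only and leaving out each library. The series calls the libraries biological replicates and gives no number of animals.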

Additional observations from a re-analysis of the deposited data

How the results depend on the processing

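No paired analysis was possible because 1 group of 3 libraries is described and no test was made. The count of genes present, the 6 markers, the top 50 nuclear genes and the sum of markers of other cells moved by less than 1.5-fold or 1 SD under the scalings, filters and transcript sets tried. The share of the 100 leading nuclear genes, 24.6% by median, was 29.2% after rescaling to nuclear genes and 21.3% with coding transcripts only, an alternative added after seeing the data. The median r between libraries, 0.866, was 0.792 with a pseudocount of 0.1 and 0.941 with no filter on low values. Leaving out each library in turn gave 11829 to 12538 genes present, a share of 24.3% to 25.9%, an r of 0.854 to 0.962, 6 markers, 41 to 49 of the top 50 genes and summed markers of other cells of 3606 to 5630 TPM. The r of 0.962 is without WT 1. Of 361 named genes with a median of 1 TPM or more, 59 were over 1.5 times lower with coding transcripts only. Without WT 1, 28 were over 1.5 times higher and 7 lower. These counts were 34 and 11 without WT 2, and 34 and 23 without WT 3. The depth is unknown, so what it limits cannot be stated, and a gene listed at 0 is not shown to be absent.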
